A study of Rattus norvegicus with 4 samples.

Results

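The genes described here encode 8 enzymes of cholesterol synthesis: Hmgcs1, Idi1, Fdps, Fdft1, Sqle, Cyp51, Tm7sf2 and Dhcr7. They were chosen by name, and their probes were found by the RefSeq accession that each array spot carries, which gave 11 probes for the 8 genes, out of 25356 genes tested. No gene of cholesterol uptake is among the 8, so uptake genes are described further on from a separate list. Total RNA came from PC12, a cell line of rat pheochromocytoma, which is a tumour of the adrenal medulla's chromaffin cells. The line is known to have no functional MAX, the protein that MYC needs as a partner on DNA. All cells were nucleofected, selected with what the labels call E418 and grown in serum-containing medium. The control line received an empty vector and the second line a MAX expression plasmid. Each was sampled at passages 8 and 13, with 1 one-colour array per sample and 2 per group. Each group is therefore 1 transfected line. Neither the promoter of the plasmid nor the clonality of the lines is given in the sources used here. The p-values measure the spread between the 2 samples of a line, which differ in passage. Of the MAX vector arrays, 1 was also on another slide, with another scan date, than all other arrays. Passage, slide and scan therefore cannot be told apart in the spread of that group. The array's 1 probe for Max was not well above background on any array (0 of 4), so it gives no check of the labels; which part of the transcript it reads, and whether the plasmid holds that part, is not given in the sources used here. The groups are therefore named by their labels alone.

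Cells build cholesterol from acetyl-CoA. The first steps lead to mevalonate, mevalonate is turned into isoprenoid units, 2 farnesyl units are joined to squalene, and squalene is cyclised and trimmed to cholesterol. The genes of this route are known to be switched on together by SREBP transcription factors when sterols in the endoplasmic reticulum are low, while LXR receptors, which sense oxysterols, switch on genes of cholesterol export. Chromaffin cells need cholesterol for the membranes of their secretory granules.

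In PC12 cells with the MAX vector, 7 of the 8 enzymes had log2 fold changes between -0.16 and 0.19, and Tm7sf2, which encodes a sterol reductase of the late pathway, was 1.67-fold higher (0.74 ± 0.10 on the log2 scale, SE, n = 2 samples in each group). Tm7sf2 did not pass an adjusted p of 0.05 in limma (adjusted p = 0.09 over all genes tested), nor did any other of the 8 (count 0). The background is 0.84% of all genes. Before adjustment 1 of the 8, Tm7sf2, had a p under 0.05, against 16.1% of all genes. The median log2 fold change of the 8 was 0.03, beside -0.02 for all genes tested. The arrays of the groups did not overlap for 2 higher genes (Tm7sf2 and Dhcr7) and 1 lower gene (Sqle), beside backgrounds of 24.2% of all genes higher, 26% lower and 50.2% either way. So 3 of 8 without overlap is not above the share among all genes.

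**Figure D1:**
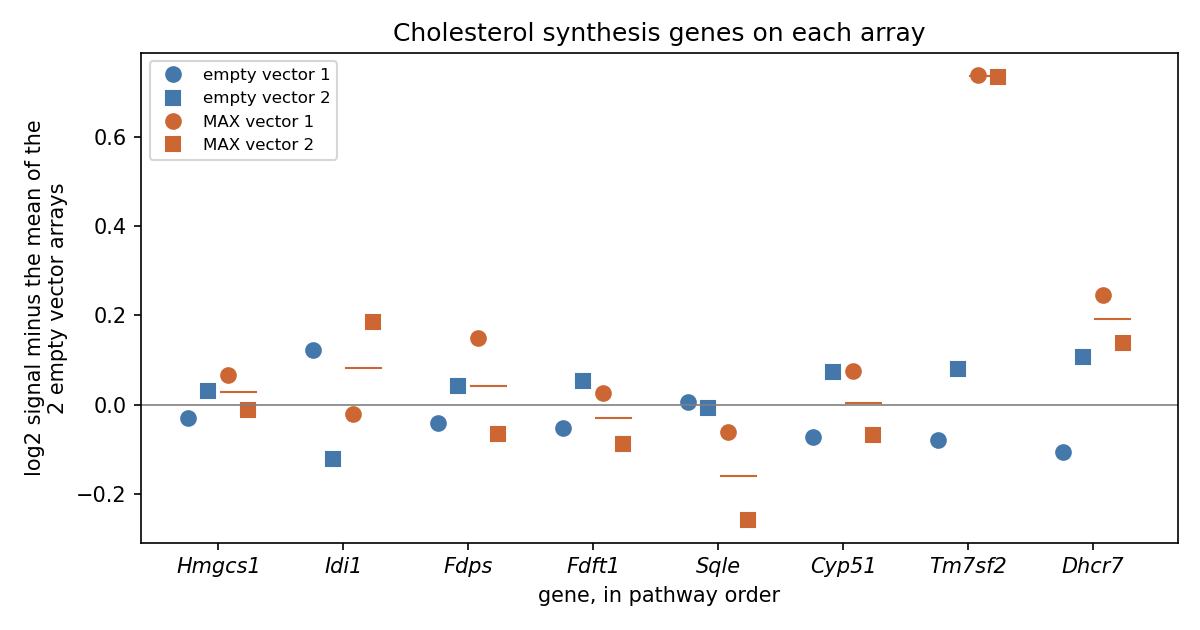
Log2 signal of the 8 genes on each of the 4 arrays, minus the mean of the 2 empty vector arrays of the same gene; circles are replicate 1, squares replicate 2, and the short line is the mean of the MAX vector arrays. Tm7sf2 lies apart, with both MAX vector arrays 0.65 to 0.82 above the empty vector arrays, while 5 of the other 7 genes overlap between the groups.

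Values below are log2 signals relative to the 75th percentile of the same array, for the brightest probe of a gene. All 11 probes were well above background on all 4 arrays, so none of these values rests on a dim signal. Levels of different genes are not compared, since each probe has its own efficiency. The first array named is replicate 1; which passage it holds is not stated in the labels.

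Hmgcs1, which encodes the cytosolic HMG-CoA synthase at the entry to the pathway, read 2.43 and 2.49 in empty vector cells against 2.52 and 2.45 in MAX cells. The groups overlapped, and the log2 fold change was 0.03 ± 0.09 (adjusted p = 0.905). Its 95% interval ran from -0.23 to 0.28. A dimmer probe of Hmgcs1 read -0.42 and -0.32 in empty vector cells against -0.30 and -0.04 in MAX cells, a log2 fold change of 0.20 ± 0.13 (adjusted p = 0.508 in a fit that kept each probe). On that probe both MAX vector arrays were above both empty vector arrays, unlike on the brighter one.

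Idi1 encodes the isomerase that makes the reactive isoprenoid unit dimethylallyl diphosphate. It read 1.83 and 1.58 in empty vector cells against 1.69 and 1.89 in MAX cells. Its arrays differed by 0.25 within the empty vector group and by 0.21 within the MAX group, more than the difference of 0.08 ± 0.14 between the groups (adjusted p = 0.805). The second Idi1 probe gave 0.06 ± 0.09.

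Fdps, which encodes farnesyl diphosphate synthase, read 5.54 and 5.62 in empty vector cells against 5.73 and 5.51 in MAX cells. The MAX vector arrays thus held both the highest and the lowest value, and the log2 fold change was 0.04 ± 0.12 (adjusted p = 0.888). Its second probe gave 0.03 ± 0.11, so the probes differed by 0.0073. RefSeq lists pseudogenes of Fdps, Idi1 and Cyp51, and how far they add to these probes' signals was not tested.

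Fdft1 encodes squalene synthase, which commits farnesyl units to sterols. It read 0.13 and 0.23 in empty vector cells against 0.21 and 0.09 in MAX cells, and the groups overlapped (log2 fold change -0.03 ± 0.10, adjusted p = 0.903). Sqle encodes squalene epoxidase, a rate-limiting enzyme of the sterol branch. It read 2.91 and 2.90 in empty vector cells against 2.84 and 2.65 in MAX cells. Both MAX vector arrays were the lower ones, by 0.05 to 0.27, and the spread lay mostly within the MAX group, whose arrays differed by 0.20. The log2 fold change of Sqle was -0.16 ± 0.11 (adjusted p = 0.54).

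Cyp51, which encodes lanosterol demethylase, read 2.61 and 2.76 in empty vector cells against 2.76 and 2.62 in MAX cells. These are nearly the same pair of values in the opposite order, and the log2 fold change was 0.0037 ± 0.11 (adjusted p = 0.991). Dhcr7 encodes the last enzyme of one branch of the route, which reduces dehydrocholesterol to cholesterol. It read 2.13 and 2.34 in empty vector cells against 2.48 and 2.37 in MAX cells. The groups did not overlap, but empty vector replicate 2 and MAX vector replicate 2 were 0.03 apart, and the log2 fold change was 0.19 ± 0.12 (adjusted p = 0.504).

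Tm7sf2 encodes a reductase of the sterol intermediates that Cyp51 produces. It read 1.11 and 1.27 in empty vector cells against 1.93 and 1.92 in MAX cells. The MAX vector arrays differed by 0.0033 and the empty vector arrays by 0.16, so the gap between groups exceeded the spread within them. The 4 pairs of arrays gave differences of 0.82, 0.81, 0.66 and 0.65, and the 95% interval of the log2 fold change ran from 0.45 to 1.02. Its log2 fold change stood at percentile 97.2 of all genes tested. The difference was as large on slide 1, which held 3 arrays (0.73), and lay between 0.66 and 0.82 under 15 other settings. Several of these settings, such as limma's trend option, the filters on dim probes and the replicate block, cannot change the log2 fold change of a single-probe gene. Others shift all genes alike, and the slide as a block is the same fit as leaving out MAX vector replicate 1. The narrow range is thus partly fixed by the settings. Tm7sf2 passed in 3 of these, with normexp background correction (adjusted p = 0.00609), with limma's trend option (0.0128) and with probes well above background on all 4 arrays only (0.0471). The adjusted p reached 0.494 without empty vector replicate 1. Tm7sf2 has a single probe here, so no second probe checks its difference.

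For the other 7 genes, every 95% interval held 0, with bounds between -0.47 and 0.52 on the log2 scale. These intervals thus lie within a 1.5-fold change in either direction (0.58 on the log2 scale), a bound chosen after the values were seen. They are intervals of single genes, not adjusted for their number, and they come from the fit reported here. Under other settings the intervals were not set against this bound, and SEs could be larger. For Dhcr7 the log2 fold change was 0.22 ± 0.17 with median scaling, against 0.19 ± 0.12.

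**Figure D2:**
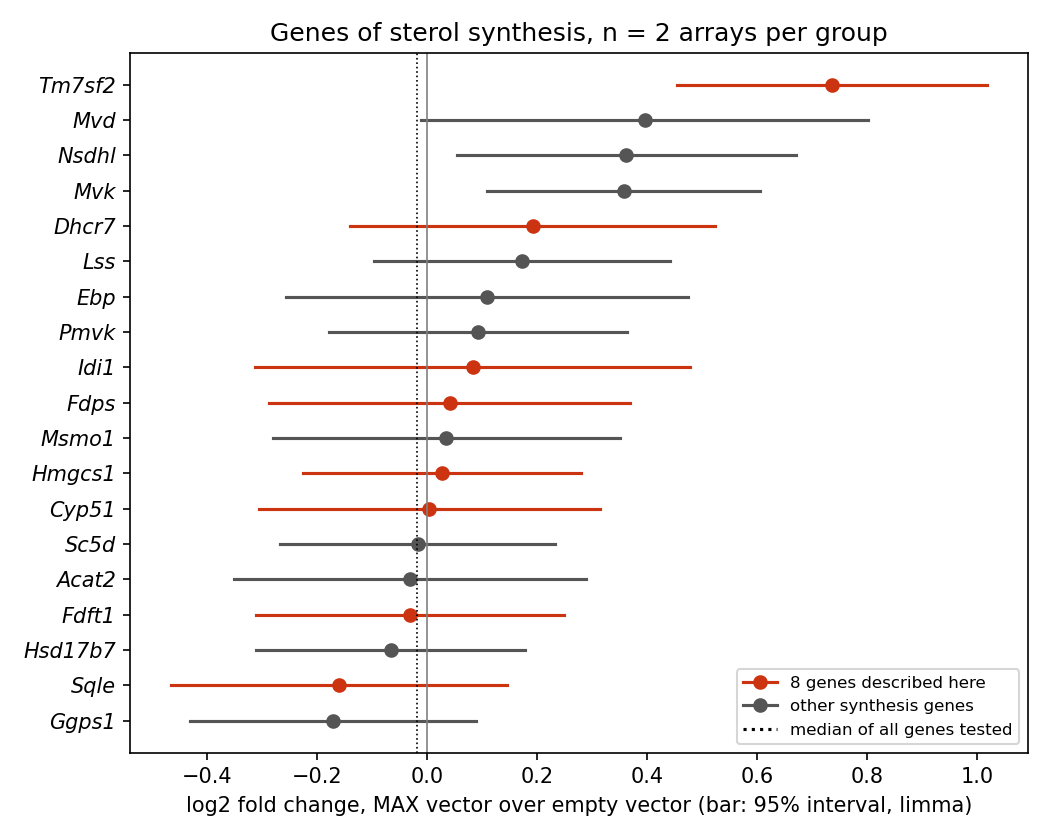
Log2 fold change of MAX over empty vector for the 8 genes (red) and 11 other measured genes of sterol synthesis (grey), sorted by value, with limma's 95% interval of each gene; the dotted line is the median of all genes tested, -0.02. Tm7sf2 is at 0.74 and the other genes lie between -0.17 and 0.40.

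The promoters of these genes were read from RefSeq's table of assembly GRCr8, which holds 6 of the 8 (not Fdft1 and Sqle), as 250 bases before to 50 bases after the annotated start. They were searched on both strands for the E-box CACGTG that MYC and MAX bind, for the core CACCCCAC of the classical sterol regulatory element, and for the CCAAT box CCAAT and the GC box GGGCGG, which NF-Y and SP1 bind beside SREBP. The E-box letters were in 0 of the 6 promoters and in 6.42% of all 33469 promoters. The CACCCCAC letters were in 0 of the 6 and in 2.7% of all. CCAAT was in 4 of the 6 (Hmgcs1, Idi1, Fdps and Tm7sf2), beside 37.5% of all. GGGCGG was in 5 of the 6 (all but Idi1), beside 33.1% of all. Other forms of the sterol element were not searched, and a match is only a match of letters.

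The 4 promoters with a CCAAT box are printed because Tm7sf2, the gene that stood apart, shares these boxes with 3 genes whose values did not. They run 5′ to 3′ on the gene's strand, with the start site after base 250, and capitals mark CCAAT or GGGCGG on either strand (ATTGG and CCGCCC are the other strand). Tm7sf2 lies at chr1:212789492-212789791 (minus strand), Hmgcs1 at chr2:53382054-53382353 (plus), Idi1 at chr17:66547475-66547774 (minus) and Fdps at chr2:176804767-176805066 (minus).
Tm7sf2: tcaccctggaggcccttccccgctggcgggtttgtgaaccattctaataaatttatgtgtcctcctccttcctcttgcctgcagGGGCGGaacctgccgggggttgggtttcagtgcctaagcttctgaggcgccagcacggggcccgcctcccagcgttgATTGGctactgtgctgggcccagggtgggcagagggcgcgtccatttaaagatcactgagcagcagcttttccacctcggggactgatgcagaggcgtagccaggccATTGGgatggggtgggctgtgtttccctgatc
Hmgcs1: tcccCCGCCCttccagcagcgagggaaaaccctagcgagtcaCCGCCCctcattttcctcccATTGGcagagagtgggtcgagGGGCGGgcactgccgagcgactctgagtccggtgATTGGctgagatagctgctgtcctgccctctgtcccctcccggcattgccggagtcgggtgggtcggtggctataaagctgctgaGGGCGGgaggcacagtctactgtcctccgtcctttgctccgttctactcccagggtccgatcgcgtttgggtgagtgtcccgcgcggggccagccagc
Idi1: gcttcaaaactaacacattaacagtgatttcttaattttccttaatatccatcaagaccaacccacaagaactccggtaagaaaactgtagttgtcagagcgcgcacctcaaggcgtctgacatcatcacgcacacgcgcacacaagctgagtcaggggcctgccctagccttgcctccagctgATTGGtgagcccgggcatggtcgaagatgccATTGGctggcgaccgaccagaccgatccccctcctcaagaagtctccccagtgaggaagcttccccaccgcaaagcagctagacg
Fdps: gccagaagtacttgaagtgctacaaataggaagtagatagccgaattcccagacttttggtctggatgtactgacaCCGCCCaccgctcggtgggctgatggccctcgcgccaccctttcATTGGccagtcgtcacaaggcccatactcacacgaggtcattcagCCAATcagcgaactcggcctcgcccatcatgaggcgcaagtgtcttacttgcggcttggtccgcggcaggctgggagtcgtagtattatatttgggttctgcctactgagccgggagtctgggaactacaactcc

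Each of these 4 promoters holds 2 CCAAT boxes. In Tm7sf2 one lies before the start, from -89 to -85, and the other after it, from 19 to 23. In Hmgcs1, Idi1 and Fdps both lie before the start: from -188 to -184 and from -133 to -129 in Hmgcs1, from -66 to -62 and from -35 to -31 in Idi1, and from -130 to -126 and from -85 to -81 in Fdps. Of the promoters not printed, Dhcr7 (chr1:208444184-208444483) holds 2 GC boxes that overlap by 1 base, from -39 to -34 and from -34 to -29. Cyp51 (chr4:30991443-30991742) holds GC boxes from -127 to -122 and from 41 to 46.

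**Figure D3:**
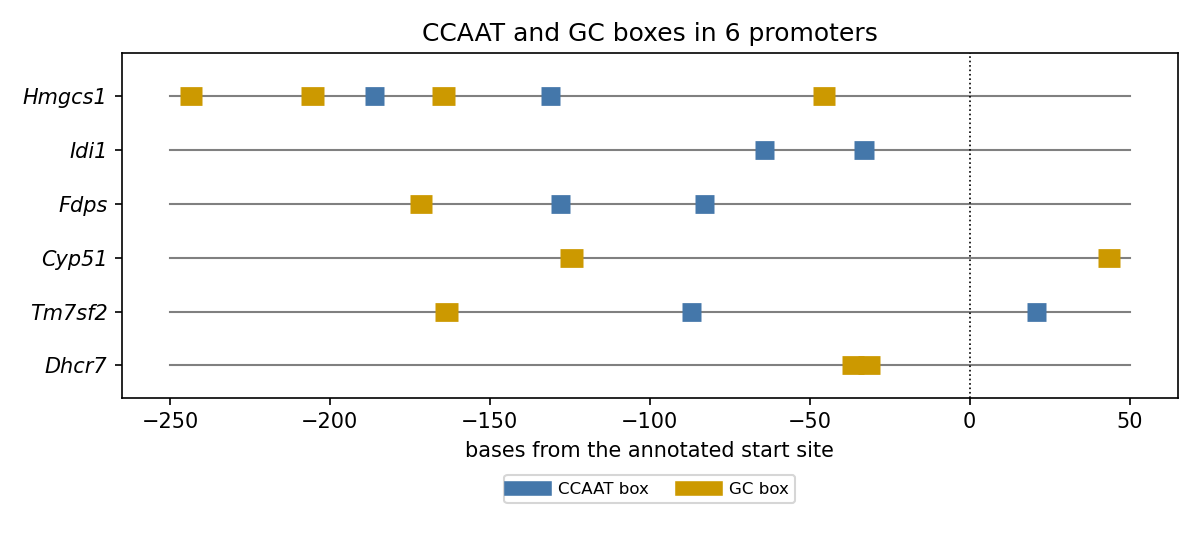
Positions of CCAAT boxes (blue) and GC boxes (yellow) on either strand in 6 promoters, in bases from the annotated start site (dotted line), drawn from 250 bases before to 50 bases after it. Tm7sf2 is the gene with a CCAAT box past the start; Hmgcs1 holds 4 GC boxes.

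The rest of the synthesis route had 11 measured genes of 15 listed, of which 0 passed in limma. With p under 0.05 before adjustment, 2 were higher (Nsdhl and Mvk) and 0 lower, beside 7.93% and 8.21% of all genes. Their median log2 fold change was 0.09. Mvd, which makes isopentenyl diphosphate, read 2.76 and 2.91 in empty vector cells against 3.38 and 3.08 in MAX cells (0.40 ± 0.15, adjusted p = 0.32). Nsdhl, which encodes a dehydrogenase that helps remove the sterol's methyl groups, had 0.36 ± 0.11 (adjusted p = 0.26), and the mevalonate kinase gene Mvk had 0.36 ± 0.09 (adjusted p = 0.206). In each of these 3 genes both MAX vector arrays were above both empty vector arrays. Lss, which encodes the synthase that cyclises squalene epoxide to lanosterol, read 0.86 and 0.83 in empty vector cells against 1.08 and 0.95 in MAX cells. Lss did not overlap either, with a log2 fold change of 0.17 ± 0.10 (adjusted p = 0.467). Over the 11 genes, the groups did not overlap for 5 higher and 2 lower genes, beside 24.2% and 26% of all genes. The lower ones were Ggps1 and Hsd17b7. Of all 19 measured synthesis genes, 13 were above 0, beside 46.5% of all genes, and Tm7sf2 had the highest value. The first 8 genes held 6 of these 13, which fell to 3 with normexp or on slide 1 alone.

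Of the genes that regulate the route, 7 of 13 listed were measured and 0 passed (1 at an unadjusted p under 0.05, Nr1h3, higher, beside 7.93% of all genes). Srebf2, which encodes the SREBP that mainly drives cholesterol synthesis, had a log2 fold change of -0.03 ± 0.09. Insig1, an SREBP target whose product holds SREBP back, read 4.19 and 4.10 in empty vector cells against 4.37 and 4.24 in MAX cells (0.16 ± 0.10, adjusted p = 0.501), and its other 3 probes gave 0.08 to 0.10. The site proteases that release SREBP, Mbtps1 and Mbtps2, had 0.16 ± 0.13 and -0.17 ± 0.16 (adjusted p = 0.589 and 0.634). Nr1h3, which encodes the receptor LXRα, read -0.11 and -0.10 in empty vector cells against 0.38 and 0.25 in MAX cells (0.42 ± 0.10, adjusted p = 0.182). Both MAX vector arrays were above both empty vector arrays for Nr1h3. Over the 7 genes, the groups did not overlap for 2 higher and 0 lower genes, beside 24.2% and 26% of all genes. Nr1h2, which encodes LXRβ, had 0.02 ± 0.13.

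Of 16 listed genes of uptake and intracellular transport, 8 were measured, with a median log2 fold change of -0.02. In limma 0 passed, and 0 had a p under 0.05 before adjustment. Scarb1, the gene of the HDL receptor that takes up cholesteryl esters, read 1.61 and 1.55 in empty vector cells against 1.63 and 1.76 in MAX cells (0.12 ± 0.10, adjusted p = 0.606). Vldlr, which encodes a lipoprotein receptor, had -0.05 ± 0.10 (adjusted p = 0.823). Npc2, whose product binds cholesterol in the lysosome, had 0.01 ± 0.10 (adjusted p = 0.964). Gramd1a, which encodes a carrier of cholesterol from the plasma membrane to the endoplasmic reticulum, had 0.12 ± 0.09 (adjusted p = 0.562). The lysosomal genes Scarb2 and Lipa, the latter encoding acid lipase, had -0.22 ± 0.09 and -0.21 ± 0.14 (adjusted p = 0.37 and 0.519). Cav1, the caveolin gene, had -0.89 ± 0.37 (adjusted p = 0.366), but the probe was well above background in only 1 of the 2 MAX samples, and its second, dimmer probe gave -0.13. The value of Cav1 was -0.15 with normexp, -0.40 without MAX vector replicate 1 and -1.37 without MAX vector replicate 2.

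Efflux, esterification and oxysterol genes had a median of 0.37 over 8 measured of 12 listed, and 0 passed in limma. With p under 0.05 before adjustment, 3 were higher (Abca1, Hsd3b7 and Cyp27a1) and 0 lower, beside 7.93% and 8.21% of all genes. The groups did not overlap for 5 higher genes and 1 lower gene, beside 24.2% and 26% of all genes. Abca1, a cholesterol exporter gene, read -1.32 and -1.12 in empty vector cells against -0.62 and -0.58 in MAX cells. The groups were separate, and Abca1 was 1.54-fold higher (0.62 ± 0.11, adjusted p = 0.131); with limma's trend option it passed (adjusted p = 0.0372). Apoe, which encodes a lipid-carrying apolipoprotein, had 0.59 ± 0.21 (adjusted p = 0.317), and Cyp27a1, which makes an oxysterol, 0.38 ± 0.11 (adjusted p = 0.253). Ch25h, another oxysterol-making gene, was dim and had 0.49 ± 0.26 (adjusted p = 0.457), 0.16 with normexp and 0.16 without empty vector replicate 1. Abcg1, a further exporter gene, had -0.09 ± 0.09, so the exporters did not lie on one side.

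**Figure D4:**
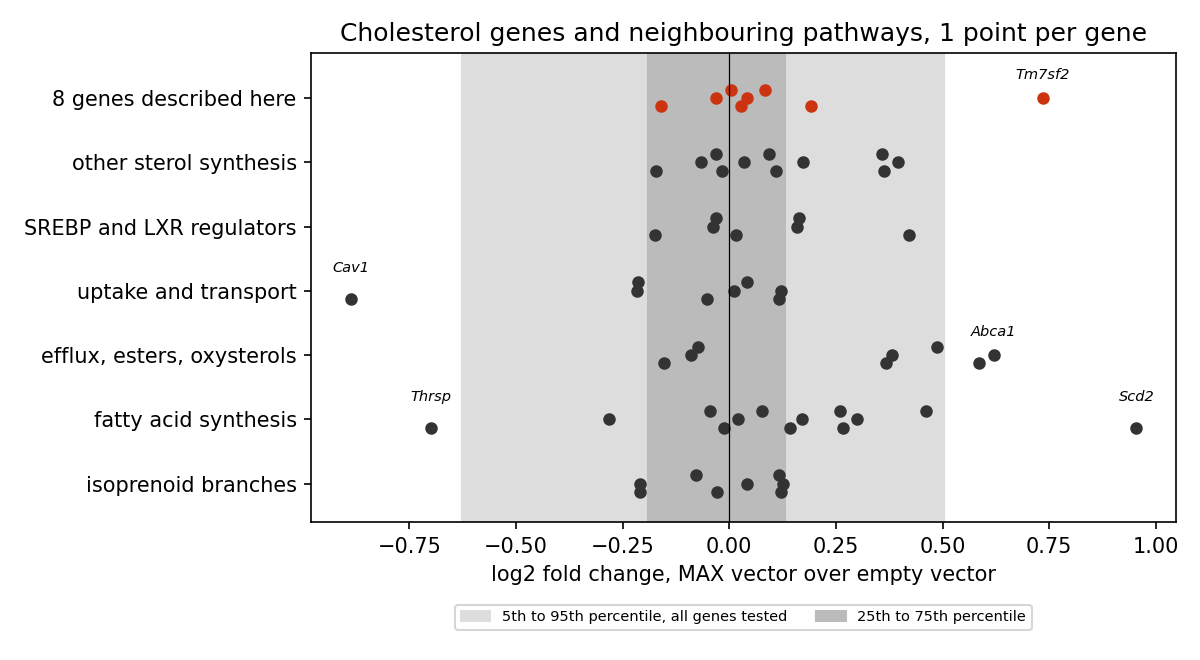
Log2 fold changes of the measured genes in 7 lists, 1 point per gene, with the 8 genes in red; the shaded bands are the 25th to 75th and 5th to 95th percentiles of all 25356 genes tested (-0.19 to 0.13 and -0.63 to 0.50). Tm7sf2, Abca1, Apoe and Scd2 lie above the wider band and Cav1 and Thrsp below it; none of these passed an adjusted p of 0.05.

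Fatty acid synthesis, which SREBP also drives, had 13 measured genes of 15 listed, 0 calls in limma and a median of 0.14. At an unadjusted p under 0.05, 3 were higher (Scd2, Scd and Fads2) and 2 lower (Thrsp and Me1), beside 7.93% and 8.21% of all genes. Scd2, a stearoyl-CoA desaturase gene, read 3.29 and 3.52 in empty vector cells against 4.28 and 4.45 in MAX cells. It was 1.94-fold higher without overlap (0.95 ± 0.13, adjusted p = 0.0912), its other 2 probes gave 0.87 and 0.82, and it passed in 4 of 15 other settings. Scd, a close paralog of Scd2 that could share its signal, had 0.46 ± 0.11 (adjusted p = 0.205), and the desaturase gene Fads2 had 0.30 ± 0.08 (adjusted p = 0.239). Thrsp, a lipogenic gene detected above background in 1 of the 2 MAX samples, had -0.70 ± 0.23 (adjusted p = 0.286), which was -0.14 with normexp and -0.45 without MAX vector replicate 1. Fasn, the fatty acid synthase gene, had 0.08 ± 0.09. Over the 13 genes, the groups did not overlap for 7 higher and 2 lower genes, beside 24.2% and 26% of all genes.

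Of the branches that use isoprenoids, 8 of 10 listed genes were measured, with a median of 0.0062. In limma 0 passed, and 0 had a p under 0.05 before adjustment. The prenyltransferase genes Pggt1b and Dhdds had -0.21 ± 0.10 each, and both MAX vector arrays were the lower ones (adjusted p = 0.4 and 0.404). Over the 8 genes, the groups did not overlap for 2 higher and 3 lower genes, beside 24.2% and 26% of all genes. Coq2, of ubiquinone synthesis, had 0.13 ± 0.10, and Rabggtb, of the enzyme that prenylates Rab proteins, had 0.12 ± 0.10 (adjusted p = 0.586 and 0.583).

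Among genes with a symbol, the 3 whose values over the 4 arrays were most like those of Tm7sf2 were Abhd1, Il15 and Syngr1. The measure was the root mean square difference of values centred on each gene's mean, which was 0.02 on the log2 scale for each, over 4 arrays. None of the 3 passed in limma (adjusted p = 0.0906, 0.0769 and 0.101). This follows largely from how they were picked, since Tm7sf2 itself did not pass.

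The 4 arrays did not rank the same way in all of the 8 genes, but the genes were not independent of the array. On MAX vector replicate 1, 7 of the 8 lay above their own mean over the arrays, and on empty vector replicate 2, 6 did. The counts were 3 on MAX vector replicate 2 and 2 on empty vector replicate 1. MAX vector replicate 1 held the highest value of 5 genes and empty vector replicate 1 the lowest of 4. MAX vector replicate 1 was also the 1 array on slide 2, and the part of that slide in its values was not tested beyond the values of slide 1. On slide 1 alone, 3 of the 8 genes were above 0 (Idi1, Tm7sf2 and Dhcr7), against 6 with all arrays, and the median was -0.04.

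**Figure D5:**
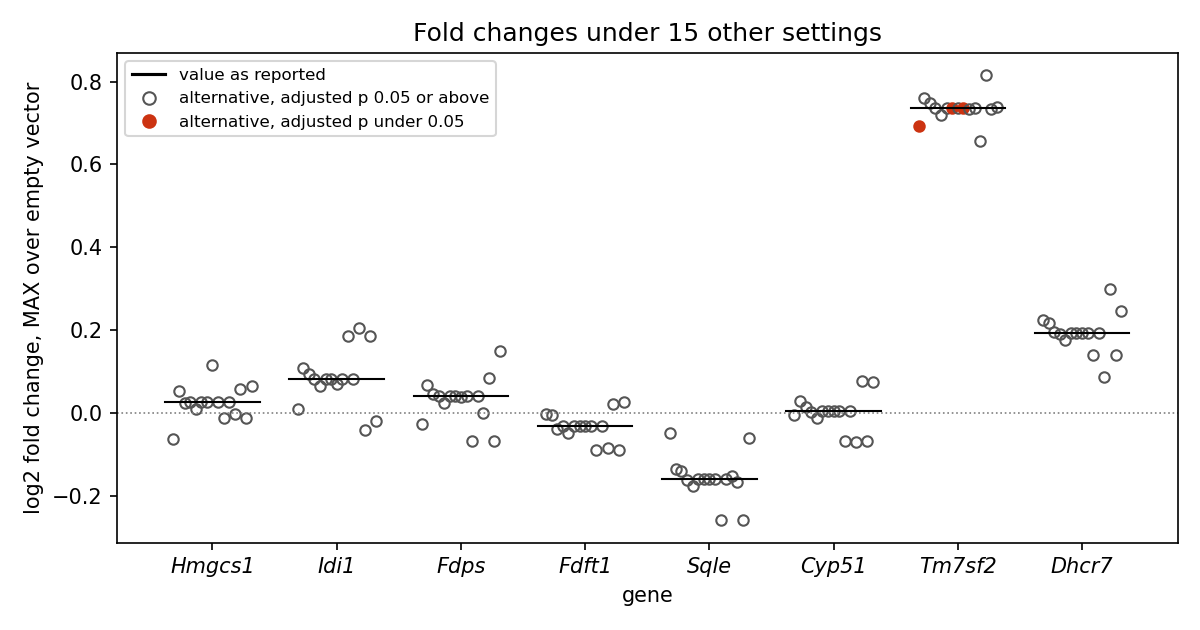
Log2 fold changes of the 8 genes under 15 other settings (circles; red where the adjusted p was under 0.05) beside the value as reported (line). Tm7sf2 stays between 0.66 and 0.82 and Dhcr7 and Sqle keep their sign, while the other 5 genes cross 0. Some settings, such as limma's trend option, cannot change a log2 fold change, so their circles repeat the value as reported.

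The cells were checked against markers of their labelled type and of others. Of 12 chromaffin markers 11 had a probe, and 8 were well above background on all arrays, among them Th, Ddc, Phox2a, Chga and Chgb. In limma 1 of the 11 was higher with MAX (Th, 2.15, adjusted p = 0.0203) and 1 lower (Ddc, -1.08, adjusted p = 0.0391), beside 0.576% and 0.264% of all genes. The summed level of the chromaffin markers was 4.34 to 4.35 with the empty vector and 3.53 to 3.54 with MAX. Ddc is the brightest of them, at 4.03 and 4.04 against 2.95 and 2.94. For the chromogranins, the log2 fold change was -0.07 for Chga (adjusted p = 0.947) and 0.17 for Chgb (adjusted p = 0.803). These 2 do not stand for the list: of the 11 markers, 2 were above 0, beside 46.5% of all genes. The groups did not overlap for 1 higher and 6 lower markers, beside 24.2% and 26% of all genes. Of 8 markers of the adrenal cortex, the steroid-making tissue around chromaffin cells, 6 had a probe; Cyp11b1, Cyp11b2 and Cyp21a1 were not well above background on any array, and the summed level was -2.28 on both empty vector arrays against -2.15 and -1.52 with MAX. Of 5 fibroblast markers with a probe 4 were well above background, with Col3a1 between 6.98 and 7.16. The summed level was 6.99 to 7.14 with the empty vector and 7.08 to 7.18 with MAX. The dimmer fibroblast markers did not move together. Lum had a log2 fold change of -1.19 ± 0.27, Col1a2 -0.16 ± 0.09 and Dcn 0.75 ± 0.13. None passed in limma (adjusted p = 0.183, 0.471 and 0.126). Of 5 macrophage markers with a probe, 3 were well above background on all arrays and Aif1 and Itgam on none; the summed level was 2.28 to 2.48 with the empty vector and 3.14 to 3.18 with MAX, with Cd14 at 2.08 and 2.29 against 3.07 and 2.94. Of the other macrophage markers, Cd68 had a log2 fold change of 0.43 ± 0.30 and Csf1r 0.06 ± 0.53, and 0 of the 3 measured passed in limma (Cd14, with an adjusted p of 0.1, was the 1 with p under 0.05 before adjustment). Hepatocyte markers summed to -4.04 and -4.10 against -3.92 and -3.35 with MAX, with Alb, Cyp7a1 and Ttr not well above background on any array. Schwann and glial markers overlapped, at -0.96 and -0.79 against -1.13 and -0.79. The macrophage, adrenal cortex and hepatocyte sums were thus higher, and the chromaffin sum lower, on the same arrays as Tm7sf2 and Abca1 were higher. The part of these sums in those values was not tested. For adrenal cortex and hepatocytes, most of the rise was on MAX vector replicate 2 (-1.52 and -3.35), less on replicate 1 (-2.15 and -3.92). Both sums were dim and include markers not well above background on any array. A sum is set mostly by its brightest genes, Cd14 for macrophages, Ddc for chromaffin cells and Col3a1 for fibroblasts. In these bulk samples, fewer cells of a type and less RNA per cell cannot be told apart. Nor do the values show whether markers of other cell types, such as Col3a1 and Cd14, come from the PC12 cells themselves.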

How the data were processed

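Spot intensity was read from the 4 scanner files that the authors deposited; per the file headers these come from Feature Extraction 10.7.3.1 (10.7 per the submitters' processing notes), which subtracted background and detrended each array without scaling between arrays. The deposited value table holds log2 values centred on an unknown baseline per probe; its differences between arrays matched the scanner files (r = 1), so its scale and direction are known and its centring is not. Medians of its 4 columns, as deposited by the authors, were -0.033, -0.011, -0.0054 and -0.0065.

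On each array there were 43379 spots for 41012 probes, 64.4% to 71.5% of them well above background, with 0 saturated spots; the number of arrays limits precision. Outlier spots (89 to 140 per array) were left out, log2 signals averaged per probe, and each array's 75th percentile over probes subtracted (taken over spots, as an added alternative). Probes well above background on at least 2 arrays were kept, 1 per gene (highest mean). Symbols came from accessions matched to RefSeq's GRCr8 table: 10768 of 41012 probes were named. No array coordinates are given. Some listed genes are not reported here and were left out of the lists and their counts.

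The test was limma 3.58.1 (lmFit and eBayes, R 4.3.3), adjusted by Benjamini-Hochberg over 25356 genes, threshold 0.05, two-sided; steps were tested on simulated data. The 8 genes and the lists were chosen with earlier results of these data known. Named genes are the 8, and from each pathway list those that passed plus the 4 largest log2 fold changes; any other gene named was picked with its value known. The files hold no mean spot signal, so normexp used the median signal. Samples were not paired by replicate number in the fit. Deviations of same-numbered samples from their group means correlated at -0.014 across probes. With 2 samples per group, and 1 array on another slide, this value cannot decide whether the numbers pair the samples.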

Additional observations from a re-analysis of the deposited data

How the results depend on the processing

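With 2 arrays per group, 146 genes were higher and 67 lower at an adjusted p of 0.05 in limma. These counts moved to 429 and 365 with normexp, 361 and 214 with median scaling, 312 and 203 with probes well above background on all arrays, 543 and 412 with limma's trend option, 8 and 0 with the slide as a block, and 0 and 0 with the replicate block (3885 at an unadjusted p under 0.05) or with no filter on dim probes (4033, against 4091). Leaving out 1 array gave 0 to 71 higher and 0 to 73 lower. Labels do not say what the replicate number marks, so what the replicate block removes is not known. As 0 of the 8 genes passed without the block, it had no call among them to remove. The adjusted p of Tm7sf2 in limma was 0.178 with the replicate block, against 0.09 without it. Tm7sf2 passed with normexp (0.69), the trend option and all-array detection (0.74 each). The number of the 8 above 0 fell from 6 to 3 with normexp, without empty vector replicate 1, or without MAX vector replicate 1. The slide as a block is the same fit as leaving out MAX vector replicate 1, the only array on slide 2, so the 2 settings count as 1. Signs turned for Hmgcs1 (-0.064 with normexp, -0.011 with the slide as a block), Fdps (-0.027 and -0.067) and Cyp51 (-0.0062 and -0.068, and -0.013 with the percentile over spots). Without 1 array the values ranged from -0.011 to 0.066 for Hmgcs1, from -0.040 to 0.21 for Idi1, from -0.067 to 0.15 for Fdps, from -0.089 to 0.027 for Fdft1 and from -0.069 to 0.077 for Cyp51. Among pathway genes Coq2 was -0.013 with normexp, and Mbtps2 ranged from -0.35 to 0.00089 (without empty vector replicate 1) without 1 array. Scd2 gave 1 higher call in its list with normexp, median scaling, all-array detection and the trend option, and Abca1 1 with the trend option. In the 100 bases before the start, 3 promoters held CCAAT and 2 GGGCGG. The causes were not tested.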
